A study of Mus musculus with 33 samples.

Results

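JQ1-treated APP mice were compared with vehicle-treated wild-type (WT) mice by RNA sequencing of the CA1 region of the hippocampus. The comparison used the 6 count libraries titled as APP with JQ1 and the 4 WT vehicle libraries with counts, which are 10 of the 32 libraries of the series with values. The 6 vehicle-treated APP libraries were used to see which differences from WT were also present without the drug. APP mice carry the APP/PS1-21 transgenes on a C57B/6 background, whose human mutant APP is driven by the Thy1 promoter, which is active in neurons. The mice were 8 to 10 months old and, by the study's methods for behavior, female. JQ1 was given intraperitoneally at 50 mg/kg for 10 days, and the other groups received vehicle with 10% DMSO by the same route over the same time. All animals had been trained in a water maze and were killed a day after its probe test, so the controls share the training and the injections. The strain label of the WT libraries also names APP/PS1-21, so that their genotype rests on their titles. JQ1-treated WT mice of this age were not analysed here, and genotype and drug both differ between the 2 groups compared. WT vehicle replicate 2 was not analysed here. The labels do not say that each library came from its own animal, and p-values measure the spread between libraries.

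BET proteins (Brd2 and Brd3 among them) bind acetylated histones and help RNA polymerase II to enter elongation. JQ1 occupies their bromodomains and displaces them from chromatin. In mice with amyloid plaques, microglia gather at the plaques and take on a disease-associated state, with lysosomal, lipid-handling and phagocytic genes, while astrocytes nearby become reactive and accumulate the filament protein Gfap. The question was which of the differences from WT remained after JQ1, and which genes differed from WT in the JQ1-treated mice alone.

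Between 14605459 and 25339482 reads per library were counted on genes. Levels are given as CPM (read counts scaled to a common library size, with TMM factors), and 3 counts corresponded to 0.118 to 0.205 CPM. CA1 neuron markers were present in all 16 libraries, with Camk2a at 3512 to 5836 CPM and Slc17a7 at 1005 to 1683 CPM. The library labelled APP JQ1 replicate 4 stood apart, as described next, and the counts of genes, and the values of genes that depend on it, are given with and without it. On the first principal component (30.6% of the variance), APP JQ1 replicates 3 and 4, APP vehicle replicate 4 and WT vehicle replicate 1 lay at 40.84 to 76.88 and the other 12 libraries at -33.17 to 4.962. The Y-linked genes Uty and Eif2s3y were at 1.01 and 1.96 CPM in APP JQ1 replicate 3 and at 2.6 and 1.53 CPM in the library labelled APP JQ1 replicate 4, against at most 0.223 CPM of either in the other 14 libraries. The Y-linked gene Ddx3y was at 1.83 CPM in the former and 0 in the latter, and at most at 0.304 CPM in the other 14. The X-linked gene Xist was at 811 CPM in the former and 721 CPM in the latter, within the 497 to 1294 CPM of all 16 libraries. The cause of the Y-linked counts was not tested. WT vehicle replicate 4 had 3065 CPM of Ttr, the transthyretin made by the choroid plexus, against 3.4 to 115 CPM in the other libraries.

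Genes tied to the transgene constructs were at WT levels in the library labelled APP JQ1 replicate 4. Reads of a human transgene, or of Thy1 sequence in the construct, can be counted on the mouse genes, and the counts do not tell them apart. Thy1, the neuronal surface protein whose promoter drives the transgenes, was at 1618 to 2070 CPM in the other 5 JQ1-treated libraries and at 820 CPM in this one, against 841, 968, 951 and 1070 CPM in WT. App, the amyloid precursor itself, was at 2070 to 2496 CPM in the other 5 and at 1781 CPM in this one, below the WT range of 1853 to 1992 CPM. Both genes had their lowest JQ1-treated value in this library, below all WT libraries, and for both the other 5 lay above every WT library. With all 6 libraries, Thy1 rose over WT by 0.80 ± 0.18 on the log2 scale (SE; edgeR adjusted p = 0.0272), while App (0.21 ± 0.09, edgeR adjusted p = 0.331) did not pass the threshold of 0.05. Without it, Thy1 was higher by 0.93 ± 0.11 (edgeR adjusted p = 4.51e-05), and App again did not pass (0.25 ± 0.09, edgeR adjusted p = 0.133). An exact two-sided permutation test on log2 CPM gave p = 0.0429 for Thy1 with 6 against 4 libraries. With 5 against 4, the permutation p of 0.00794 is the smallest it can give. It follows from the lack of overlap after this library was set apart, so it adds no support. Whether this mouse carried the transgenes was not tested.

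**Figure D1:**
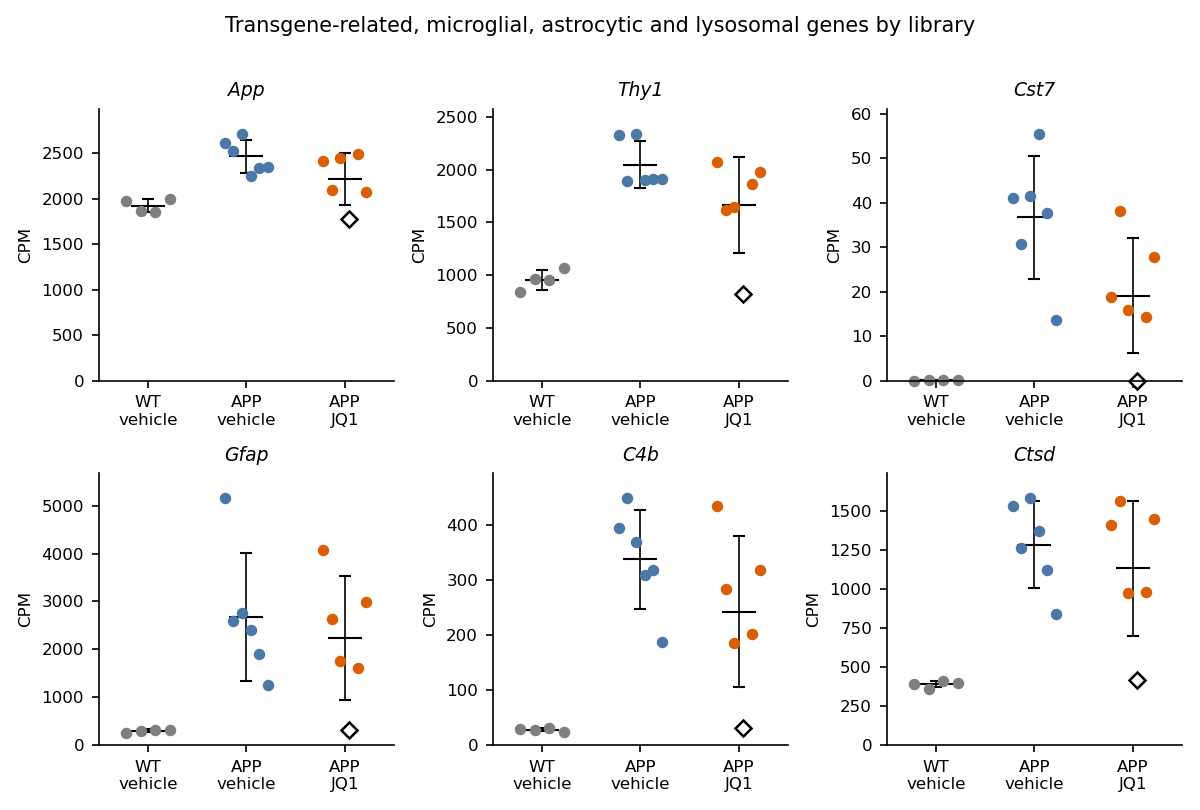
CPM (y axis, from 0) of App, Thy1, Cst7, Gfap, C4b and Ctsd in each library of the 3 groups (x axis), with horizontal lines at the mean and bars of 1 SD; the open diamond is the library labelled APP JQ1 replicate 4. The diamond lies below the WT points for App and Thy1, among them for Cst7 and C4b and just above them for Gfap and Ctsd, while the other 5 JQ1-treated libraries lie above WT in all 6 panels.

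The same library was at or near WT levels for many glial genes, but not for Igf1, Serping1 and Aqp4, described below. Gfap was at 322 CPM in it, against 1610 to 4076 CPM in the other 5 JQ1-treated libraries and 249 to 321 CPM in WT. Cst7, the cystatin F of plaque microglia, had 0 counts in it and 14.2 to 38.2 CPM in the other 5, while the 4 WT libraries held 9 counts in all. Of the 452 genes that were higher than WT in both APP groups when this library was left out, it lay below the other 5 in 420, and it was above all WT libraries in 106. Their median level on the log2(CPM + 0.5) scale, relative to the WT mean, was -0.04 in this library, 0.90 to 1.61 in the other JQ1-treated libraries and 0.77 to 1.44 in the vehicle-treated APP libraries. The 32 genes that were higher only with JQ1, chosen without this library, did not follow that pattern. For these, its median was 0.94, inside the range of the other 5 (0.90 to 1.17), and it was above all WT libraries in 30 of the 32. It lay among the JQ1-treated libraries for the genes found only with JQ1 and among the WT libraries for those shared by the APP groups.

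**Figure D2:**
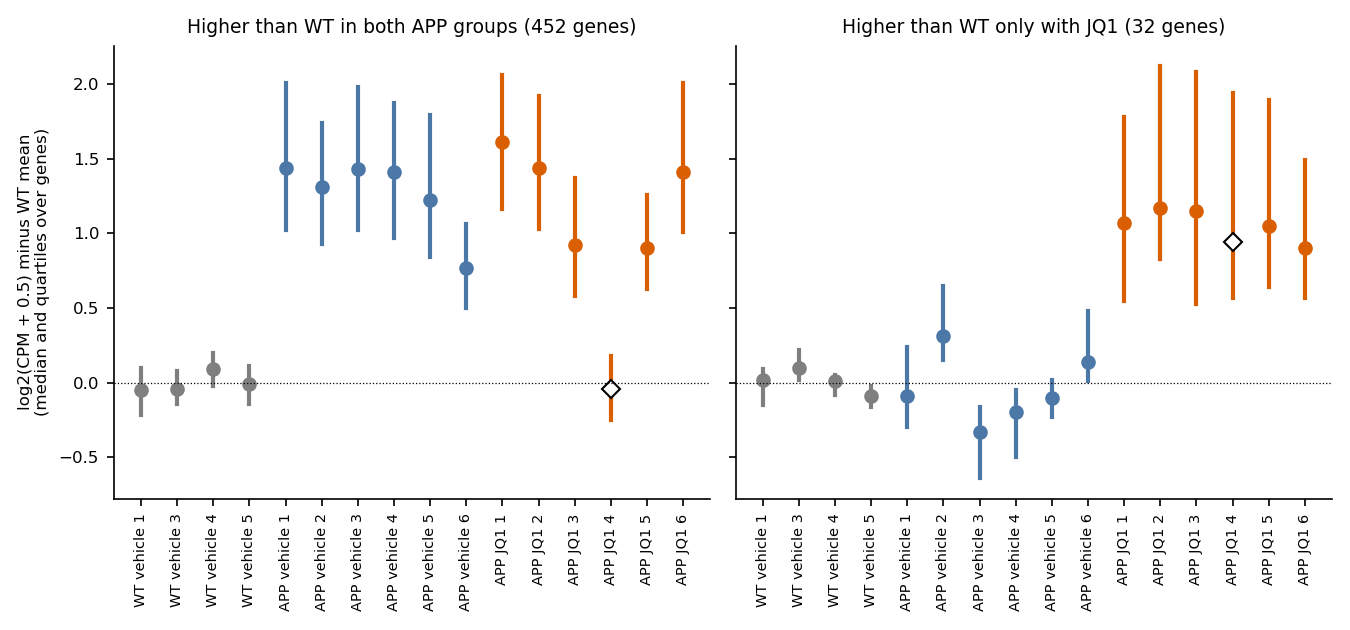
Log2(CPM + 0.5) minus the WT mean (y axis) for each library (x axis), as the median with its quartiles over the 452 genes higher in both APP groups (left) and the 32 genes higher only with JQ1 (right), both chosen without the library labelled APP JQ1 replicate 4 (open diamond). The diamond is at -0.04 on the left, among the WT libraries, and at 0.94 on the right, among the JQ1-treated ones.

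Across all genes, 349 of 16962 tested genes differed between JQ1-treated APP and WT vehicle mice at an edgeR adjusted p under 0.05, which is 2.06% (here called genes). Of these, 327 (1.93%) were higher and 22 (0.13%) were lower in JQ1-treated APP mice. Without the library labelled APP JQ1 replicate 4, 651 of 16948 genes were called (3.84%), 610 higher (3.6%) and 41 lower (0.242%), and 343 of the 349 were among them. The 6 that lost their call were Pcolce2, Col11a1, Clock, Ankrd12, Zfp292 and Usp34. Vehicle-treated APP mice differed from the same WT libraries in 436 genes (2.57%), 422 of them higher (2.49%) and 14 lower (0.0825%). JQ1- and vehicle-treated APP mice differed in 184 genes (1.08%), 105 higher with JQ1 (0.619%) and 79 lower (0.466%). The count was 73 without the library labelled APP JQ1 replicate 4 (0.431%), 62 higher (0.366%) and 11 lower (0.0649%). Leaving out another library instead gave 65 to 446. The count with all JQ1-treated libraries depended on each WT library. It was 153 without WT vehicle replicate 1, 25 without replicate 3, 30 without replicate 4 and 11 without replicate 5. With the library labelled APP JQ1 replicate 4 also left out, it was 402 to 569.

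Of the 349 genes, 239 (1.41% of genes tested) were also called in the same direction in vehicle-treated APP mice, and 238 of these were higher than WT. These differences from WT remained after JQ1. Both comparisons used the same 4 WT libraries, so the values of the APP groups are given side by side. Over the 238 genes, the log2 fold change against WT ranged from 0.38 to 7.47 with JQ1 (median 1.68) and from 0.30 to 8.40 with vehicle (median 1.84). None of the 239 was called by edgeR between the APP groups (smallest adjusted p 0.270), 1 of them had an unadjusted p under 0.05, and DESeq2 called 0 of them. The log2 difference between JQ1 and vehicle ran from -0.94 to 0.82 over the 238 genes, with a median of -0.17. Without the library labelled APP JQ1 replicate 4, 458 genes (2.7%) remained, 238 of the 239 among them, and 452 were higher than WT. With it and 1 WT library left out, 313 to 362 remained. With all JQ1-treated libraries kept, the number that remained was 60 without WT vehicle replicate 1, 10 without replicate 3, 13 without replicate 4 and 4 without replicate 5.

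Many genes of myeloid cells, which in CA1 are mostly microglia, remained higher. Over all genes tested, 1.93% were higher with JQ1 and 2.49% with vehicle. Without the library labelled APP JQ1 replicate 4 these shares were 3.6% and 3.32%. They stand beside the counts of this list and of the glial, immune, lysosomal and cholesterol lists that follow. Of a list of 32 myeloid genes, 28 were higher than WT with JQ1, all 28 of them also with vehicle. With the library labelled APP JQ1 replicate 4 left out, 30 were higher, all of them also with vehicle. The median log2 fold change of the list was 1.69, beside 0.00 over all genes tested. The summed level of the 32 genes was 473 to 778 CPM in 5 of the JQ1-treated libraries, 177 CPM in the library labelled APP JQ1 replicate 4, 414 to 730 CPM in vehicle-treated APP libraries and 171 to 200 CPM in WT. In CA1 tissue, more cells of a type and more RNA per cell cannot be told apart. Cd53, a tetraspanin of leukocytes, was at 6.87 to 31.6 CPM with JQ1 (median 22.5) and at 5.58 to 7.52 CPM in WT. It rose by 1.73 ± 0.31 on the log2 scale (edgeR adjusted p = 0.0137), by 1.90 ± 0.22 without the library labelled APP JQ1 replicate 4, and by 1.65 with vehicle. Ncf1, a subunit of the phagocyte NADPH oxidase, rose by 1.38 ± 0.24 (edgeR adjusted p = 0.00999), by 1.52 ± 0.18 without that library, and by 1.48 with vehicle. Cd14, the co-receptor for bacterial lipopolysaccharide, rose by 2.41 ± 0.42 (edgeR adjusted p = 0.0137), and by 2.60 ± 0.31 without it, beside 2.90 with vehicle. Csf1r, the receptor on which microglia depend to survive, was at 85.2 CPM in the library labelled APP JQ1 replicate 4 and at 158 to 298 CPM in the other 5, against 81.5 to 102 CPM in WT.

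Of 35 genes of disease-associated microglia, 18 were higher than WT with JQ1, beside 25 with vehicle in the same fit. In the fit without the library labelled APP JQ1 replicate 4, the same 26 were higher with JQ1 and with vehicle. No member of the list was lower, and none was called between the APP groups. The median log2 fold change was 1.56 with JQ1 and 1.86 with vehicle. Cst7 was 7.47 ± 1.25 above WT on the log2 scale with JQ1 (edgeR adjusted p = 0.0137) and 8.40 with vehicle, a fold that rests on the 9 WT counts, and 7.72 ± 0.65 above WT without that library. Itgax, which encodes the integrin CD11c, and Clec7a, a receptor for beta-glucan, were added after their values were seen. Itgax was at 0.333 CPM in the library labelled APP JQ1 replicate 4 and at 9.43 to 23.3 CPM in the other 5, against 0.299, 0.391, 0.506 and 0.422 CPM in WT. Clec7a was at 0.1999 CPM in that library and at 6.08 to 20.3 CPM in the other 5, against 0.127 to 0.590 CPM in WT. The chemokine genes Ccl3 and Ccl4 rose by 4.17 ± 0.73 (edgeR adjusted p = 0.0124) and 4.30 ± 0.65 (edgeR adjusted p = 0.00482). Igf1, the insulin-like growth factor, did not drop to WT in any library, with 16.3 to 29.1 CPM in all 6 JQ1-treated libraries, 13.3 to 28.1 CPM with vehicle and 8.69 to 10.6 CPM in WT. It rose by 1.24 ± 0.21 (edgeR adjusted p = 0.00999).

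Trem2, the lipid receptor needed for the disease-associated state, and its signalling partner Tyrobp were likewise added after their values were seen. Trem2 was at 83.8 to 147 CPM in 5 JQ1-treated libraries and at 14.7 CPM in the library labelled APP JQ1 replicate 4, against 15.4, 16.4, 16.02 and 18.9 CPM in WT. Tyrobp was at 74.9 to 166 CPM in the 5 and at 18.6 CPM in that library, which was still above the WT range of 13.7 to 18.0 CPM. For both genes the 5 libraries lay within or near the range of vehicle-treated APP mice, 68.6 to 147 CPM for Trem2 and 83.4 to 220 CPM for Tyrobp.

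Of 20 genes of homeostatic microglia, 7 were higher with JQ1 and 10 with vehicle (1.93% and 2.49% of all genes), and none was lower. The counts were 13 and 11 without the library labelled APP JQ1 replicate 4. Cx3cr1, the fractalkine receptor, was at 42.9 CPM in the library labelled APP JQ1 replicate 4 and at 74.5 to 134 CPM in the other 5, against 37.4 to 47.3 CPM in WT. It rose by 1.21 ± 0.23 (edgeR adjusted p = 0.0148), and by 1.35 ± 0.15 without that library. P2ry12, the ADP receptor of resting microglia, was at 49.2 to 80.1 CPM with JQ1 (median 65.4) and at 44.5 to 48.8 CPM in WT. The groups did not overlap, but the gene did not pass with all libraries (0.45 ± 0.14, edgeR adjusted p = 0.126) and passed without the library labelled APP JQ1 replicate 4 (0.50 ± 0.14, edgeR adjusted p = 0.0493). Tmem119 did not pass in either fit (0.48 ± 0.16 and 0.53 ± 0.16 on the log2 scale).

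Complement genes also remained higher. Of 15 genes, 8 were higher than WT with JQ1 in either fit, 7 of them also with vehicle. C4b, which takes part in the classical pathway and is made by reactive astrocytes, was at 30.4 CPM in the library labelled APP JQ1 replicate 4 and at 185 to 436 CPM in the other 5. The WT libraries had 24.1 to 31.2 CPM. C4b rose by 3.13 ± 0.53 on the log2 scale (edgeR adjusted p = 0.0137), and by 3.36 ± 0.28 without that library, beside 3.61 with vehicle. Serping1, the C1 inhibitor, was at 17.1 CPM in that library and at 12.04 to 30.1 CPM in the other 5, against 3.34 to 9.23 CPM in WT. All 6 JQ1-treated libraries lay above WT, and Serping1 rose by 1.91 ± 0.33 (edgeR adjusted p = 0.0124).

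Interferon response and antigen presentation genes differed between the fits. Of 27 interferon response genes, 12 were higher with JQ1 and 13 with vehicle. Without the library labelled APP JQ1 replicate 4, which also changes the estimated spread behind the vehicle comparison, 21 were higher with JQ1 and 20 with vehicle. Irf7, the transcription factor that amplifies type I interferon, was at 3.86 to 7.62 CPM in all 6 JQ1-treated libraries (median 4.67), 2.72 to 7.71 CPM with vehicle and 0.978 to 1.65 CPM in WT. It rose by 1.94 ± 0.31 (edgeR adjusted p = 0.00693). Ifit1, which binds viral RNA, rose by 2.05 ± 0.35 and Ifit3 by 1.54 ± 0.30 on the log2 scale. Ifi44 rose by 4.06 ± 0.69 (edgeR adjusted p = 0.00999), with 0.533 CPM in the library labelled APP JQ1 replicate 4, 2.15 to 5.89 CPM in the other 5 and 0.0489 to 0.299 CPM in WT. Of 20 antigen presentation genes, 3 were higher with JQ1 and 12 with vehicle, and without that library 10 and 14 were. The 3 were B2m (1.44 ± 0.27), the light chain of class I molecules, the class I heavy chain H2-K1 (1.26 ± 0.25) and the immunoproteasome subunit Psmb8 (1.79 ± 0.37). Class I heavy chain genes are near-identical in places, so reads may be split among them.

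The class II genes Cd74 and H2-Aa, named after their values were seen, were called with vehicle and not with JQ1. Cd74, the invariant chain, was at 3.33 CPM in the library labelled APP JQ1 replicate 4 and at 31.0 to 146 CPM in the other 5, with vehicle at 35.3 to 434 CPM and WT at 2.11 to 6.37 CPM. Its log2 difference from WT was 4.196 ± 1.16 with JQ1 (edgeR adjusted p = 0.0886) and 5.60 with vehicle, and without that library it was 4.44 ± 1.04 and passed (edgeR adjusted p = 0.0322). H2-Aa was at 3.87 to 43.5 CPM in 5 JQ1-treated libraries and at 0.338 to 2.28 CPM in WT, and did not pass in either fit (edgeR adjusted p = 0.150 and 0.0846). The interferon-induced chemokine Cxcl10 also passed only without that library (3.53 ± 0.73, edgeR adjusted p = 0.00852). None of these genes was called between the APP groups.

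**Figure D3:**
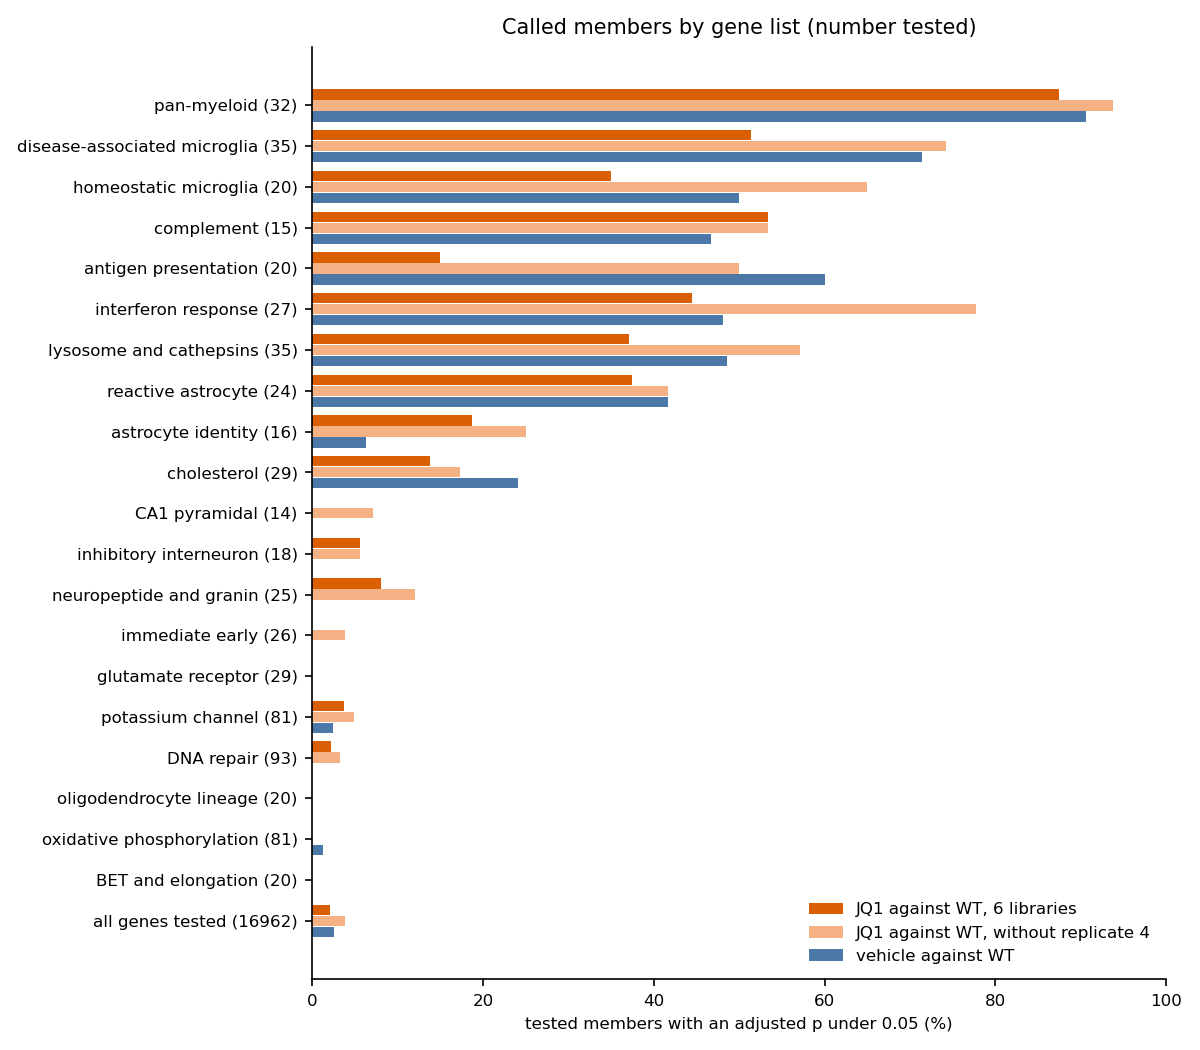
Percent of the tested members of each gene list (y axis, number tested in parentheses) with an adjusted p under 0.05 against WT vehicle, for JQ1-treated APP with 6 libraries, for JQ1-treated APP without the library labelled replicate 4, and for vehicle-treated APP in the fit of all libraries. The myeloid, microglial, complement, interferon, lysosomal and astrocytic lists lie above all genes tested (2.06%, 3.84% and 2.57%), and the CA1 pyramidal, glutamate receptor and immediate early lists have no called member with 6 libraries.

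Lysosomal genes remained higher. Of 35 genes, 13 were higher with JQ1 and 17 with vehicle. The fit without the library labelled APP JQ1 replicate 4 gave 20 and 19. Ctsd, the aspartic protease cathepsin D, was at 972 to 1564 CPM in 5 JQ1-treated libraries and at 416 CPM in the library labelled APP JQ1 replicate 4, against 392, 360, 409 and 396 CPM in WT. Its log2 difference was 1.54 ± 0.28 (edgeR adjusted p = 0.0145), 1.70 ± 0.18 without that library, and 1.72 with vehicle. Gusb (beta-glucuronidase) rose by 1.39 ± 0.27 and Hexa (the alpha subunit of hexosaminidase A) by 0.97 ± 0.18.

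Of 24 reactive astrocyte genes, 9 were higher with JQ1 and 10 with vehicle, without the library labelled APP JQ1 replicate 4 there were 10 in either group, and the median log2 fold change was 1.90. Gfap rose by 2.92 ± 0.57 (edgeR adjusted p = 0.0186), and by 3.14 ± 0.38 without that library, beside 3.18 with vehicle. Aspg, an asparaginase, rose by 2.85 ± 0.53 (edgeR adjusted p = 0.0148), and by 3.04 ± 0.44 without it, beside 3.47 with vehicle. Of 16 genes of astrocyte identity, 3 were higher with JQ1 and 1 with vehicle (1.93% and 2.49% of all genes). Without that library, 4 were higher with JQ1 and 3 with vehicle (3.6% and 3.32% of all genes). Aqp4, the water channel of astrocyte endfeet, was at 106 to 214 CPM with JQ1 (median 175), above all WT libraries (80.9 to 101 CPM), and at 112 to 187 CPM with vehicle. It rose by 0.86 ± 0.19 with JQ1 (edgeR adjusted p = 0.0259), while with vehicle its difference of 0.65 did not pass. Both passed without the library labelled APP JQ1 replicate 4 (0.95 ± 0.17 with JQ1, and 0.64 with vehicle, edgeR adjusted p = 0.0376), so that Aqp4 then counted among the genes that remained. Slc1a3, the glutamate transporter GLAST, rose by 0.49 ± 0.12 with JQ1 (edgeR adjusted p = 0.0329), with 0.27 and no call for vehicle. Sox9, a transcription factor of the glial lineage, rose in both. Neither Aqp4 nor Slc1a3 was called between JQ1 and vehicle, so these data do not show a difference between the APP groups.

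Of 29 cholesterol genes, 4 were higher with JQ1 and 7 with vehicle (1.93% and 2.49% of all genes), and without the library labelled APP JQ1 replicate 4 these were 5 and 7. Apoe, the main lipid carrier of the brain, was at 1596 to 3621 CPM with JQ1 (median 2721), 1909 to 3806 CPM with vehicle and 1340 to 1458 CPM in WT. It rose by 0.90 ± 0.19 (edgeR adjusted p = 0.0178), and by 1.01 ± 0.16 without that library. The cholesterol exporter Abca1 rose by 1.03 ± 0.19 (edgeR adjusted p = 0.0137). All 6 JQ1-treated libraries lay above all WT libraries for both genes. Clu, the lipoprotein clusterin, was looked at after its values were seen and rose by 0.89 ± 0.19 (edgeR adjusted p = 0.0234).

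Apart from Gfap and Lnpep (described below), the largest increases by the naming rule, Ifi44 included, were in genes that were low in WT. Cd200r4, a receptor family member of myeloid cells, had 1 count over the 4 WT libraries and 0.959 to 1.98 CPM in 5 JQ1-treated libraries, with 0.0667 CPM in the library labelled APP JQ1 replicate 4. Zbp1, a sensor of Z-form nucleic acid, had 1 count in each WT library and 0.0633 to 2.85 CPM with JQ1 (median 1.02). Lcn2, the iron-binding lipocalin of reactive astrocytes, was at 0.533 to 3.95 CPM with JQ1 and at 0 to 0.379 CPM in WT. It rose by 3.996 ± 0.94 (edgeR adjusted p = 0.0353). Cxcl5, a chemokine for neutrophils, rose by 4.06 ± 0.81, the interferon-inducible Ifi207 by 3.82 ± 0.66, the Src-family kinase Fgr by 3.12 ± 0.49 and the myeloid receptor Cd300lf by 3.10 ± 0.65. All of these were also called with vehicle, as was H2-Q6 (2.89 ± 0.62 with JQ1), a class Ib gene.

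Several further genes that were nearly silent in WT lost their place in the naming rule only through the library labelled APP JQ1 replicate 4. Ctse, the endosomal protease cathepsin E, was at 0.133 CPM in it and at 15.2 to 33.4 CPM in the other 5, against 0.211 to 0.782 CPM in WT. Dcstamp, which drives the fusion of myeloid cells, was at 0.0667 CPM in it and at 2.66 to 11.1 CPM in the other 5, against 0 to 0.147 CPM in WT. Cxcl13, a chemokine for B cells, was at 0 CPM in it and at 0.316 to 11.7 CPM in the other 5, against 0 to 0.211 CPM in WT. Without that library, Ctse rose by 5.28 ± 0.59 (edgeR adjusted p = 8.17e-05), Dcstamp by 6.05 ± 0.81 (edgeR adjusted p = 0.000299) and Cxcl13 by 5.67 ± 1.31 (edgeR adjusted p = 0.0253). With all libraries, Cxcl13 did not pass (edgeR adjusted p = 0.0865).

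A single gene remained lower. Gpr37, an orphan receptor of oligodendrocytes and neurons, was at 55.9 to 68.8 CPM with JQ1 (median 65.0), 51.4 to 73.6 CPM with vehicle and 90.7, 81.5, 78.9 and 87.5 CPM in WT. All JQ1-treated libraries lay below WT, the library labelled APP JQ1 replicate 4 (67.8 CPM) included. The gene fell by 0.40 on the log2 scale with JQ1 (SE 0.09, edgeR adjusted p = 0.0259) and by 0.45 with vehicle. Without that library, 5 further genes remained lower, Zfp385b, Pygm, Neurod6, Osbpl6 and Ica1. Neurod6, a transcription factor of pyramidal neurons, was at 162 to 229 CPM in the 5 libraries and at 253 CPM in the library labelled APP JQ1 replicate 4, against 230 to 350 CPM in WT. It fell by 0.57 in that fit (SE 0.13, edgeR adjusted p = 0.0157). Pygm, the muscle-type glycogen phosphorylase that astrocytes express, fell by 0.41.

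Of the 436 genes called with vehicle, 197 had no call with JQ1, but only 2 of them differed between the APP groups, so that a missing call cannot be read as a return to WT. When the library labelled APP JQ1 replicate 4 was left out, 124 of the other 195 were called with JQ1 in the same direction. The 2 genes were Lzts2 and Mroh1. Lzts2, a leucine-zipper protein that binds beta-catenin, was at 23.5 to 27.6 CPM with JQ1 (median 25.1), 32.5 to 38.5 CPM with vehicle and 23.6, 24.5, 28.0 and 29.1 CPM in WT. The JQ1-treated libraries overlapped WT and lay below all vehicle-treated APP libraries. Lzts2 was 0.41 above WT with vehicle (edgeR adjusted p = 0.0146) and lower by 0.46 with JQ1 than with vehicle (edgeR adjusted p = 0.00681). Mroh1 was at 73.5 to 113 CPM with JQ1, 112 to 140 CPM with vehicle and 88.6 to 94.9 CPM in WT, and its call between the APP groups was lost without the library labelled APP JQ1 replicate 4 (edgeR adjusted p = 0.0539). In that fit, 3.32% of genes were higher with vehicle than in WT and 0.0649% were lower with JQ1 than with vehicle, and Tia1, an RNA-binding protein of stress granules that was higher with JQ1 than with vehicle, joined Lzts2. Tia1 was at 194 to 221 CPM in the 5 JQ1-treated libraries, 152 to 178 CPM with vehicle and 190 to 205 CPM in WT.

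A separate set of genes differed from WT only with JQ1. Of the 349 genes, 110 were not called with vehicle, and 38 of these (0.224% of genes tested) were also called in the same direction between the APP groups, which tests the difference between the 2 comparisons with WT. This count was 54 without WT vehicle replicate 1, 12 without replicate 3, 12 without replicate 4, 7 without replicate 5 and 56 without APP vehicle replicate 2. Of the 38, 34 were higher with JQ1 and 4 were lower. Over the 34 higher genes, the log2 fold change against WT was 0.35 to 3.28 with JQ1 (median 1.32) and -0.37 to 0.63 with vehicle, and 17 of the 34 were below WT with vehicle. The vehicle-treated libraries were not alike. APP vehicle replicate 2 lay above all WT libraries for 24 of the 34 and replicate 6 for 17. Replicates 1, 3, 4 and 5 did so for 9, 0, 4 and 4. All 6 JQ1-treated libraries lay above all WT libraries for 32 of the 34 (for 3.71% of all genes tested the groups did not overlap in either direction). The genes were chosen by this same comparison, so this separation largely follows from the choice. Without the library labelled APP JQ1 replicate 4 there were 34 such genes (0.201%), of which 30 were among the 38. Those lost were Lcor, Clock, Vgf, Ankrd12, Zfp292, Usp34, Wdfy1 and Vmn2r29, and those gained were Col19a1, Smc2, Atr and E330013P04Rik.

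Lnpep had the largest increase. It encodes insulin-regulated aminopeptidase, a membrane protease that cleaves vasopressin and oxytocin and binds angiotensin IV, and lies at chr17:17521410-17625050 (mm10). It was at 25.9, 41.6, 33.7, 30.5, 29.5 and 23.4 CPM in JQ1-treated APP replicates 1 to 6, at 2.47 to 8.85 CPM with vehicle (median 4.44) and at 3.34, 3.72, 3.16 and 2.45 CPM in WT. Every JQ1-treated library was above every other library. The log2 difference from WT was 3.28 ± 0.28 (edgeR adjusted p = 1.48e-05), and 2.65 from vehicle (edgeR adjusted p = 9.32e-06). It was 3.28 ± 0.29 without the library labelled APP JQ1 replicate 4.

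Gucy1a2, the alpha-2 subunit of the nitric oxide receptor guanylyl cyclase (chr9:3532778-3894736, mm10), was at 9.03 to 13.6 CPM with JQ1 (median 12.4), 0.755 to 2.58 CPM with vehicle and 2.24, 2.20, 2.32 and 2.24 CPM in WT. The highest value was that of the library labelled APP JQ1 replicate 4. Gucy1a2 rose by 2.39 ± 0.26 (edgeR adjusted p = 0.000200), and by 2.34 ± 0.27 without that library. Ptpn4, a tyrosine phosphatase that acts at glutamate receptors (chr1:119652467-119837613, mm10), was at 17.5 to 25.6 CPM with JQ1 (median 22.2), 3.25 to 7.72 CPM with vehicle and 4.39 to 6.07 CPM in WT. It rose by 2.04 ± 0.22 (edgeR adjusted p = 0.000202), and by 1.98 ± 0.23 without that library. Bmpr2, the type II receptor for bone morphogenetic proteins, was at 18.1 to 37.6 CPM with JQ1 (median 31.4) and at 3.29 to 5.67 CPM in WT, a log2 difference of 2.79 ± 0.43. Fzd3, a Wnt receptor of axon guidance, was at 5.62 to 15.4 CPM and at 1.48 to 2.54 CPM in WT, a difference of 2.37 ± 0.28. For all of these genes the 6 JQ1-treated libraries lay above both other groups.

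**Figure D4:**
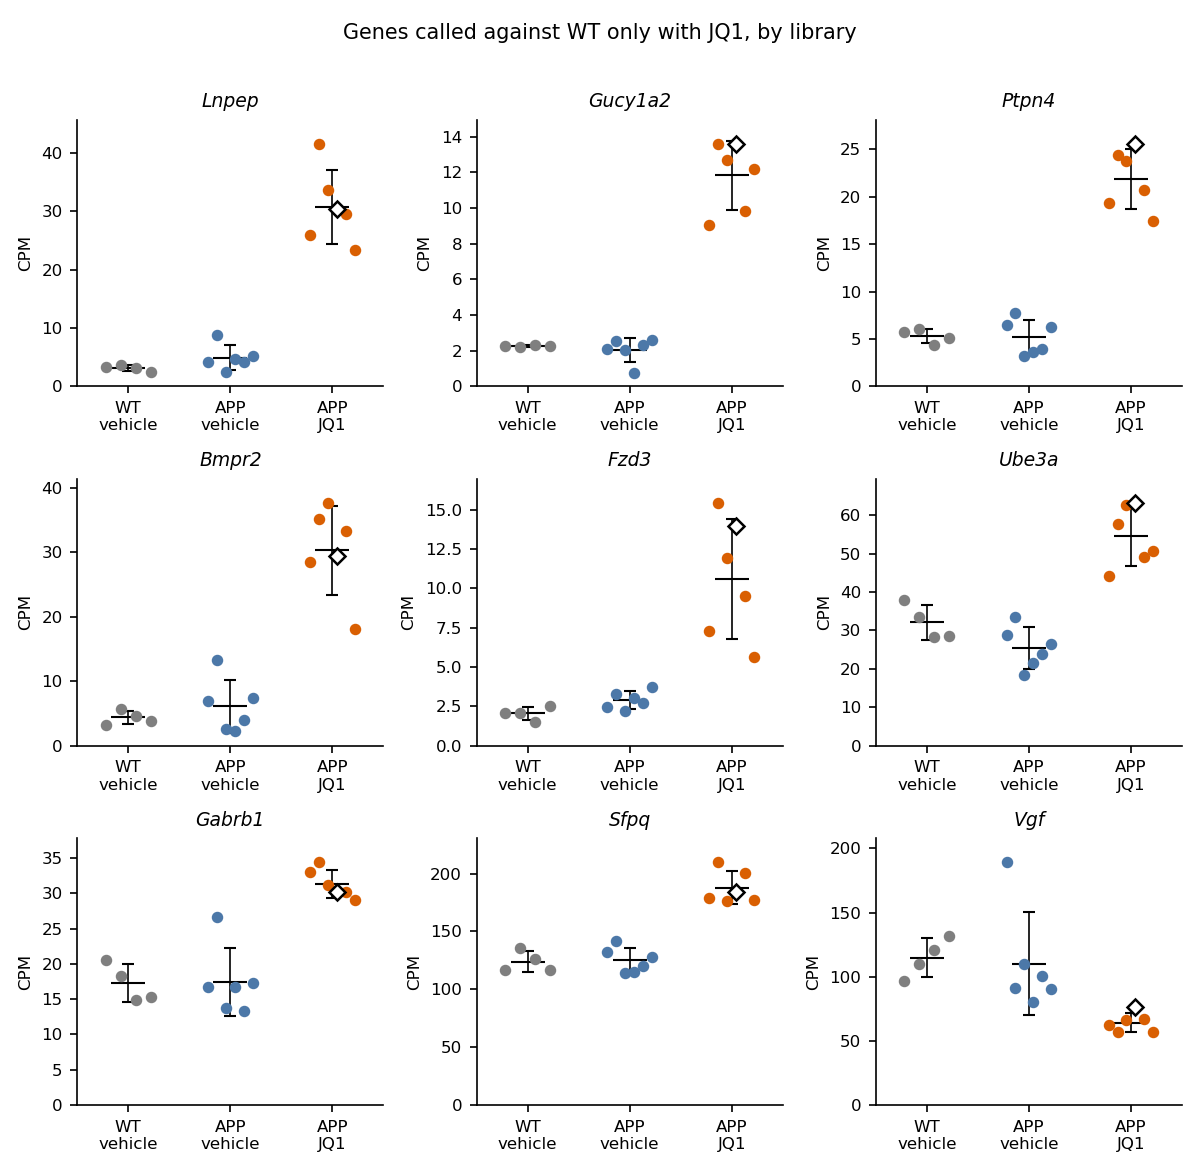
CPM (y axis, from 0) in each library of the 3 groups (x axis) for 8 genes higher and 1 gene (Vgf) lower than WT only with JQ1, with horizontal lines at the mean and bars of 1 SD; the open diamond is the library labelled APP JQ1 replicate 4. The JQ1-treated libraries lie above both other groups in the 8 panels, Lnpep at 23.4 to 41.6 against at most 8.85, and the diamond lies among them.

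The other large increases chosen by the naming rule were in the zinc-finger genes and signalling genes Zfp871 (2.45 ± 0.40 on the log2 scale), Dgkh, a diacylglycerol kinase (2.23 ± 0.44), Lcor, a ligand-dependent corepressor of nuclear receptors (2.22 ± 0.50), Fam135b (2.05 ± 0.37) and the uncharacterised BC005561 (2.24 ± 0.32). In the library labelled APP JQ1 replicate 4 they were at 30.6 CPM for Zfp871, 9.26 CPM for Dgkh, 8.93 CPM for Lcor, 19.4 CPM for Fam135b and 10.6 CPM for BC005561. These values lay inside the range of the other 5 libraries for each gene.

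Among the smaller increases, several genes of neurons were examined after their values were seen. Ube3a, the ubiquitin ligase of Angelman syndrome, was at 44.1 to 63.1 CPM with JQ1 (median 54.2), 18.3 to 33.6 CPM with vehicle and 37.8, 33.6, 28.4 and 28.6 CPM in WT. Its log2 difference from WT was 0.76 ± 0.15 (edgeR adjusted p = 0.0148), and with vehicle it was -0.34 and not called. Stxbp5l (tomosyn-2), which restrains vesicle priming, was at 32.9 to 51.2 CPM with JQ1 and at 12.4 to 19.5 CPM in WT, a difference of 1.53 ± 0.30. Slc16a7, the neuronal monocarboxylate transporter MCT2, rose by 1.18 ± 0.18 (edgeR adjusted p = 0.00620), from 4.44 to 6.31 CPM in WT to 9.92 to 13.8 CPM. Xkr4, a membrane scramblase family member, rose by 1.93 ± 0.23 (edgeR adjusted p = 0.000307). Sfpq, a splicing factor that sustains the transcription of long genes, was at 177 to 210 CPM with JQ1 (median 182), 114 to 141 CPM with vehicle and 117 to 136 CPM in WT. Its difference was small against its size but well outside the spread of the libraries (0.60 ± 0.08, edgeR adjusted p = 0.00211). Vps13a, a lipid transfer protein, rose by 0.62 ± 0.10 and Smg1, the kinase of nonsense-mediated decay, by 0.62 ± 0.12. Clock, the circadian transcription factor, rose by 0.47 ± 0.11 with all libraries (edgeR adjusted p = 0.0405) and did not pass without the library labelled APP JQ1 replicate 4 (edgeR adjusted p = 0.0544).

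The genes higher only with JQ1 were long and poor in G and C. Of the 33 with an annotated transcript, 21 (63.6%) had 10 kb or more of exonic sequence, against 8.72% of all genes tested and 5.46% of the genes that remained higher. Their median exonic length was 11839 bases and their median GC content 41%, against 4116 bases and 49.8% over all genes tested. The genes that remained higher had medians of 3786 bases and 50.1%. The share of reads outside exons was higher in some JQ1-treated libraries. It was 16.9 to 26.9% in JQ1-treated APP libraries (median 21.4%), 15.4 to 24.5% with vehicle (median 18.6%) and 16.3 to 18.9% in WT (median 18%). APP vehicle replicates 2 and 6, above all WT libraries for 24 and 17 of the 34 genes, had the highest vehicle shares (24.5% and 22.3%). APP JQ1 replicates 3 and 4 had the lowest JQ1 shares (16.9% and 17.05%) and were above all WT libraries for all 34. With a correction of the counts for GC content and length, 24 of the 37 genes that could be tested were again found only with JQ1, and 31 were called against WT. With the share of reads outside exons as a covariate, 23 of 38 were found again. The part of read composition in these differences was not otherwise tested. Lnpep, Gucy1a2, Ptpn4, Fzd3, Xkr4, Sfpq and BC005561 were called against WT under every setting tried.

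**Figure D5:**
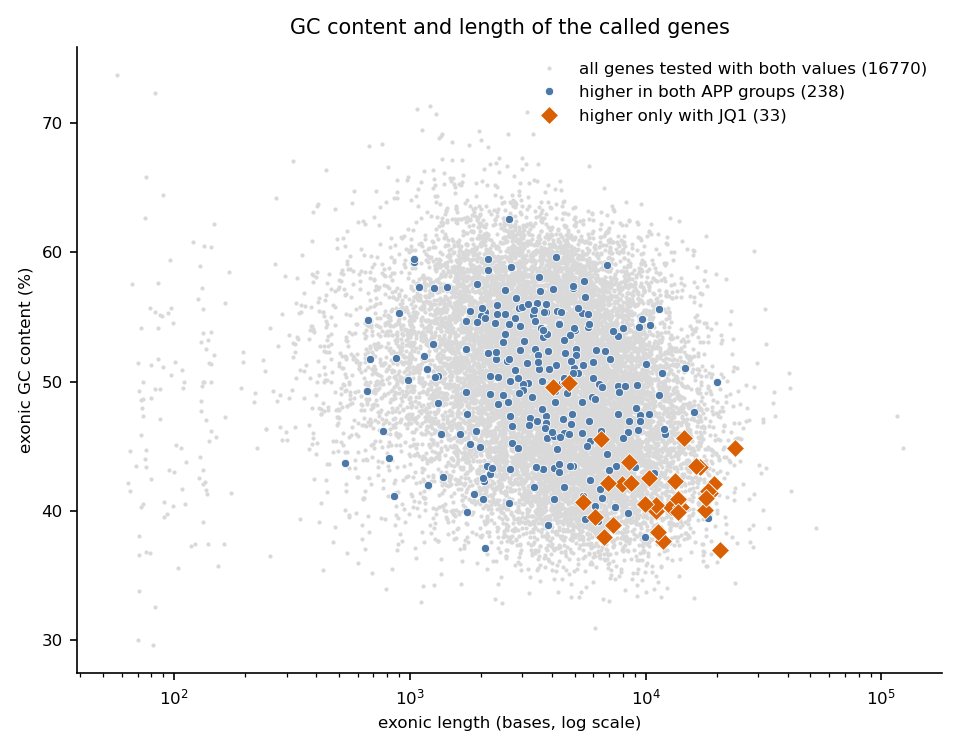
Exonic GC content (y axis, percent) against exonic length (x axis, bases, log scale) of each gene tested, with the 238 genes higher in both APP groups and 33 of the 34 genes higher only with JQ1 marked. The genes higher only with JQ1 sit at the long, GC-poor edge, with medians of 11839 bases and 41%, while the 238 genes spread over the cloud of all genes.

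The promoters of the 2 sets held different numbers of CG dinucleotides, which the choice of genes did not use. RefSeq promoters of the build GRCm38.p6 (250 bases before to 50 after the start) were found by symbol for 12443 of the 16962 genes tested, 179 of the 238 genes that remained higher and 24 of the 34 genes higher only with JQ1. The median number of CG in the 300 bases was 19 over all genes tested, 7 for the genes that remained higher and 25 for the genes higher only with JQ1. At least 15 CG were found in 64.6%, 26.3% and 79.2% of them. The motif GAGGAAG, a core sequence of PU.1 sites, was searched on both strands and occurred in 27.4% of promoters of genes that remained higher, in 13.3% of those of all genes tested, in 13.5% of the 27025 promoters of the table and in 0 of the 24, a number too small to tell a low share from none. The interferon-type motif of a GAAA followed, after any 2 bases, by another GAAA occurred in 6.15%, 2.89%, 3.49% and 0 of the 24. Chosen without the library labelled APP JQ1 replicate 4, the genes that remained higher (337 with a promoter) and those higher only with JQ1 (23) had medians of 8 and 21 CG, and GAGGAAG in 24.9% and 4.35% (1 of the 23). A match is only a description of these letters. The 250 bases before the start are shown 5′ to 3′ on the gene's strand, with every CG in capitals, for 2 genes of disease-associated microglia, Cst7 (chr2:150570165-150570414, plus strand) and Itgax (chr7:128129300-128129549, plus strand), and for 2 genes higher only with JQ1, Lnpep (chr17:17624490-17624739, minus strand) and Ptpn4 (chr1:119837072-119837321, minus strand).
Cst7: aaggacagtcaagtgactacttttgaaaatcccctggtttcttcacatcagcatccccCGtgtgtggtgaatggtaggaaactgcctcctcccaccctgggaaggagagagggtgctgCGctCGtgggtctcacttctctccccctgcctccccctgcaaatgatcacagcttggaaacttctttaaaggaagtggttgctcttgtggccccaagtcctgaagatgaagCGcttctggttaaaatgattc
Itgax: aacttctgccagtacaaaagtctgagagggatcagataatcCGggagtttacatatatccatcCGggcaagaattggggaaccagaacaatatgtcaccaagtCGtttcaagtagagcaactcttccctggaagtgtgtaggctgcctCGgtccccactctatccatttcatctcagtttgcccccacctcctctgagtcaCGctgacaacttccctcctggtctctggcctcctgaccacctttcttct
Lnpep: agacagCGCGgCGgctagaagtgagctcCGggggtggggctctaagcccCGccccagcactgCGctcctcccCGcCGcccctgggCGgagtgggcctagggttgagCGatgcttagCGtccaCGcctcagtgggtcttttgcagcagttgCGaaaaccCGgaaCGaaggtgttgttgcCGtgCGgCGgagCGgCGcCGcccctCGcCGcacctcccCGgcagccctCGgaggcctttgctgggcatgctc
Ptpn4: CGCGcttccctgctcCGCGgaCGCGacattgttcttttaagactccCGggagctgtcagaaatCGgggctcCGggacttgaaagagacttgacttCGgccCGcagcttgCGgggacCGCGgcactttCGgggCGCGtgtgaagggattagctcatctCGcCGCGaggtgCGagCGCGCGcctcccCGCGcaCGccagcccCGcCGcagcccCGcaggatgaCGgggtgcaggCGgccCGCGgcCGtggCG
The microglial pair had 4 and 5 CG in these 250 bases, and the pair higher only with JQ1 had 25 and 36. Neither motif occurred in these 4 promoters.

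Other genes were called against WT with JQ1 but neither with vehicle nor between the APP groups, so they were not separated from vehicle. Egfr, the receptor for epidermal growth factor, was at 15.7 to 32.5 CPM with JQ1 (median 22.1), 12.3 to 20.9 CPM with vehicle and 11.1 to 12.8 CPM in WT. It rose by 0.95 ± 0.19 over WT (edgeR adjusted p = 0.0148), and its difference from vehicle was 0.53 (edgeR adjusted p = 0.108). Cat, the catalase that removes hydrogen peroxide, was at 56.0 to 105 CPM with JQ1 (median 61.3), 43.6 to 76.4 CPM with vehicle and 34.8 to 41.7 CPM in WT. It rose by 0.89 ± 0.18 over WT (edgeR adjusted p = 0.0172). Both genes were named after their values were seen, and for both all 6 JQ1-treated libraries lay above WT.

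The number of genes lower than WT depended on the processing. It was 22 here and 41 without the library labelled APP JQ1 replicate 4, and 105 with DESeq2. With the correction for GC content and length it was 180, and 416 without that library. The correction also moved the median log2 fold change over all genes from 0.001 to -0.076, and from -0.009 to -0.087 without that library. The counts of 180 and 416 were not adjusted for this shift of the median. Of the 22, Oscar, Vmn2r29, Vgf and Adam11 were lower only with JQ1. Vgf, a secreted neuropeptide precursor induced by activity, was at 56.6 to 76.3 CPM with JQ1 (median 64.1), 80.2 to 189 CPM with vehicle and 96.3, 110, 121 and 132 CPM in WT. All 6 JQ1-treated libraries were below all others. Vgf fell by 0.84 on the log2 scale (SE 0.18, edgeR adjusted p = 0.0249) and by 0.90 without the library labelled APP JQ1 replicate 4 (SE 0.19, edgeR adjusted p = 0.0121), where its call between the APP groups was lost (edgeR adjusted p = 0.0539). Adam11, a catalytically inactive member of the ADAM family at synapses, was at 185 to 247 CPM with JQ1 (median 196) and at 298, 283, 291 and 289 CPM in WT. It fell by 0.49 (SE 0.09, edgeR adjusted p = 0.0145), and by 0.46 without that library. Oscar, a receptor of the leukocyte receptor complex, had 12 counts over the 6 JQ1-treated libraries, 220 over the vehicle-treated and 130 over the WT libraries, with 0 in the library labelled APP JQ1 replicate 4. Vmn2r29, a vomeronasal receptor gene with near-identical copies, had 7, 75 and 72 counts. It is uncertain for that reason.

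Sst, the somatostatin of a class of interneurons, was at 156 to 174 CPM with JQ1 (median 160) and at 170, 244, 231 and 266 CPM in WT, so that the groups overlapped in WT vehicle replicate 1. It fell by 0.48 (SE 0.11, edgeR adjusted p = 0.0291), and was not called between the APP groups. Genes examined after their values were seen included Cplx1, a complexin of fast transmitter release, which was at 574 to 657 CPM with JQ1 and at 753 to 813 CPM in WT and fell by 0.35 (SE 0.09, edgeR adjusted p = 0.0364). Slc1a1, the neuronal glutamate transporter EAAC1, fell by 0.29 and Ckmt1, the mitochondrial creatine kinase of brain, by 0.45. For these 3 genes the JQ1-treated libraries lay below all WT libraries, and neither the difference between the APP groups nor that of vehicle from WT passed. Among the further genes lower by the naming rule, Gng8, a G protein gamma subunit, was at 0.152 to 0.467 CPM against 0.847 to 1.27 CPM in WT (a fall by 1.98, SE 0.38). Plch2 (0.65), Mirt1 (0.67), Tbata (0.64), Pcolce2 (0.58, not called without the library labelled APP JQ1 replicate 4), Cfap100 (0.57) and Spred3 (0.51) fell by less on the log2 scale.

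Neuronal gene lists are given beside the 2.06% of all genes that were called, a share that amounts to less than 1 gene in each of these lists. No CA1 pyramidal gene of 14 was called by edgeR with all libraries. Neither was any of 17 genes of other hippocampal fields, 29 glutamate receptor genes or 26 immediate early genes. At an unadjusted p under 0.05 by edgeR there were 2, 1, 4 and 3 in these lists. These are 14.3%, 5.9%, 13.8% and 11.5% of them, against 14.1% of all genes tested. DESeq2 called 1, 0, 1 and 1, beside 774 of the 16962 genes tested. Of 18 interneuron genes Sst alone was called, and of 25 neuropeptide and granin genes Vgf and Sst were. Nr4a1, an orphan nuclear receptor induced by activity, was at 26.7 to 108 CPM with JQ1, with the highest value in the library labelled APP JQ1 replicate 4, and at 95.9, 124, 78.8 and 175 CPM in WT. Its difference was -0.90 ± 0.30 with all libraries (edgeR adjusted p = 0.154), and without that library it fell by 1.12 (SE 0.27, edgeR adjusted p = 0.0317). The activity genes Arc, a synaptic capsid-like protein, and Fos did not pass in either fit, with differences of -0.62 ± 0.39 and -0.30 ± 0.55. Of 14 GABA-A receptor genes only Gabrb1, the beta-1 subunit, was called. It was at 29.1 to 34.4 CPM with JQ1 (median 30.7), 13.3 to 26.6 CPM with vehicle and 20.5, 18.3, 14.9 and 15.3 CPM in WT, and it rose by 0.86 ± 0.16 (edgeR adjusted p = 0.0137).

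Against WT, ion channel and DNA repair lists held calls at about the share over all genes, of which 1.93% were higher. Of 81 tested potassium channel genes, 3 were higher with JQ1. Kcnj2, an inward rectifier also found in microglia, was at 11.8 CPM in the library labelled APP JQ1 replicate 4 and at 19.7 to 31.7 CPM in the other 5, with 19.7 to 26.8 CPM for vehicle and 10.0 to 13.8 CPM in WT. Kcnj2 (0.94 ± 0.20) and the K2P channel Kcnk6 (0.97 ± 0.23) were also called with vehicle, whereas Kcnh5, a voltage-gated channel of the EAG family, was higher only with JQ1 (0.99 ± 0.24, edgeR adjusted p = 0.0418). Of 50 sodium, calcium, HCN and TRP channel genes, only Trpm1 was called, in both APP groups. Of 93 DNA repair genes, 2 were higher with JQ1 and none with vehicle. Atm, the kinase that signals double-strand breaks, was at 18.7 to 24.1 CPM with JQ1 (median 22.6), 9.70 to 16.3 CPM with vehicle and 14.2 to 17.1 CPM in WT, and it rose by 0.51 ± 0.12 (edgeR adjusted p = 0.0379). Rev3l, the catalytic subunit of the translesion polymerase zeta, rose by 0.44 ± 0.10 (edgeR adjusted p = 0.0221). Atr, the related kinase for stalled forks, was not called with all libraries (0.39 ± 0.11, edgeR adjusted p = 0.0690) and was without the library labelled APP JQ1 replicate 4 (0.42 ± 0.11, edgeR adjusted p = 0.0354). Of 20 cohesin and condensin genes none was called with all libraries, and Smc2, a condensin subunit, was without that library (0.45 ± 0.11, edgeR adjusted p = 0.0231). Of the 20, 7 had an unadjusted p under 0.05 by edgeR (35.0%, against 14.1% of all genes), all higher with JQ1. DESeq2 called 2 of the 20, beside 774 of the 16962 genes tested. Between the APP groups, 3 of the 20 and 5 of the 93 DNA repair genes were called higher with JQ1 (0.619% of all genes). Of the DNA repair genes, 2 were lower (0.466% of all genes).

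The BET genes described here were not called. Brd2 was at 196 to 224 CPM with JQ1 (median 209) and at 195 to 212 CPM in WT (0.03 ± 0.07 on the log2 scale). Brd3 differed by -0.04 ± 0.08. Hexim1, an inhibitor of the elongation kinase, differed by -0.13 ± 0.10, and Myc by 0.25 ± 0.18. None of 20 BET and elongation genes and none of 65 histone and DNA modifier genes passed by edgeR or DESeq2. Of the 16962 genes tested, DESeq2 called 774. At an unadjusted p under 0.05 by edgeR there were 2 (10.0%) and 5 (7.7%), against 14.1% of all genes tested.

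Markers of other cell types were not called. None of 20 oligodendrocyte genes, 20 endothelial and mural genes or 5 blood genes was called by edgeR, and the summed level of the oligodendrocyte list was 4371 to 7361 CPM in JQ1-treated and 5663 to 6708 CPM in WT libraries. Of 15 choroid plexus genes, 9 were tested and none was called. Their summed level was 36.8 to 160 CPM in JQ1-treated libraries and 41.8 to 3277 CPM in WT, the highest being WT vehicle replicate 4, and 6 of the 9 had an unadjusted p under 0.05, all lower with JQ1. None of 81 oxidative phosphorylation, 75 ribosomal protein, 20 heat shock, 20 polyadenylated histone or 15 glucocorticoid response genes was called with all libraries, nor any of 12 genes of amyloid precursor cleavage. Over all the lists without a call, 53 of 467 genes had an unadjusted p under 0.05 by edgeR, 33 higher and 20 lower with JQ1. DESeq2 called 11 of the 467, beside 774 of the 16962 genes tested. These 53 are 11.3% of the lists' genes, against 2391 (14.1%) of all genes tested. The lists were pooled because they held no call, which lowers their share, so it does not show an absence of change. Single lists ranged from 0.0% (oligodendrocyte) to 66.7% (choroid plexus).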

How the data were processed

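RNA from microdissected CA1 was sequenced. Per the labels and the study's methods, the authors aligned reads with STAR to mm10 and deposited HTSeq counts per gene, and the processing notes also name CASAVA 1.8.2, TopHat, Cufflinks and Cuffdiff. The last 5 lines of each file (reads outside exons, ambiguous, of low quality, unaligned or not unique) were dropped. One edgeR 4.0.16 quasi-likelihood fit (R 4.3.3, robust, TMM, filterByExpr) covered 16 libraries in 3 groups, with Benjamini-Hochberg adjustment over 16962 genes and a threshold of 0.05. DESeq2 1.42.0 and sva 3.50.0 were used for alternatives, and those that combine the omission of APP JQ1 replicate 4 with another setting were added after the data were seen. Totals of 14605459 to 25339482 counts per library and the spread between libraries set the precision, and fold changes of genes with few counts depend on edgeR's prior count.

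Named genes were the 10 largest changes in each direction among called genes whose groups did not overlap and whose higher group had at least 1 CPM, overall and in each class, up to 4 members of each list, and App, Thy1, Brd2, Brd3, Hexim1 and Myc. Other names are markers or were chosen after their values were seen. The members and the 35 lists were chosen with earlier results of these data known. Coordinates, exonic length and GC content came from GENCODE M21 (GRCm38, the build of mm10). Some genes under this rule are not reported here. FPKM files of young WT mice were not used.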

Additional observations from a re-analysis of the deposited data

Results flagged for a closer look

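Within a group, 1 library stood far from the others, by Dixon's 95% limit, for 5 of 102 gene levels and groups examined. Chance alone gives about 1 in 20. Thy1 was at 820 CPM in the library labelled APP JQ1 replicate 4 and at 1618 to 2070 CPM in the other JQ1-treated libraries. Glycam1, an endothelial mucin, was at 14.3 CPM in APP JQ1 replicate 6 and at 0 to 4.76 CPM in the others. In WT vehicle replicate 1, Spred3 was at 61.4 CPM against 84.0 to 87.1 CPM in the other WT libraries. Cd200r4 was at 0.0422 CPM in WT vehicle replicate 5 and at 0 in the others, which is 1 count. The predicted gene Gm49339 was at 0.127 CPM in WT vehicle replicate 4 and at 0.0422 to 0.0498 CPM in the others. The causes were not tested.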

How the results depend on the processing

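The genes called against WT, the genes that remained, the vehicle-only calls and the genes only with JQ1 numbered 349, 239, 197 and 38. DESeq2 gave 790, 466, 338 and 124. A fit of only the 2 groups of each comparison gave 227 called, 123 remaining and 556 vehicle only. The replicate block gave 21, 5, 30 and 10, and 36, 10, 19 and 12 with the GC and length correction added. The covariate for reads outside exons gave 112 called, 48 remaining and 314 vehicle only. One surrogate variable gave 612 called, 89 vehicle only and 64 only with JQ1. Without count filter there were 27 genes only with JQ1, and with at least 10 counts 41. The 184 genes called between the APP groups became 749 with DESeq2, 38 with the GC and length correction, 517 with the covariate and 73 without APP JQ1 replicate 4. Leaving out 1 library gave 11 to 651 called, 4 to 458 remaining, 94 to 298 vehicle only and 7 to 56 only with JQ1. Leaving out each WT library with all JQ1-treated libraries kept gave 153 called (replicate 1), 25 (replicate 3), 30 (replicate 4) and 11 (replicate 5). Without the library labelled APP JQ1 replicate 4, DESeq2 gave 1034, 602, 326 and 116, the 2-group fit 689 called and 437 remaining, the replicate block 463 called and 18 only with JQ1, the GC and length correction 1035 called and 524 remaining, and the covariate 381 remaining. Without APP JQ1 replicates 3 and 4, 792 were called and 533 remained. With 1 WT library also left out, 402 to 569 were called, 313 to 362 remained, 63 to 123 were vehicle only and 21 to 49 only with JQ1. With the GC and length correction, 336 of 516 called genes (65.1%) were higher, against 93.7% without it, and 619 of 1035 (59.8%) without that library. The median log2 fold change over all genes was -0.076 with the correction and 0.001 without it. Same-numbered JQ1 and WT libraries did not deviate together (correlations of -0.471 to 0.224 over 4 pairs, mean -0.215, 1 of 4 best with its own number), and same-numbered JQ1 and vehicle-treated APP libraries correlated at -0.107 to 0.342 over 6 pairs (mean 0.124, against -0.0207 for other numbers, 3 of 6 best with their own number). Not every pair passed 0.1, so the numbers were not taken to pair the libraries. No named gene changed sign while called. The causes of these differences were not tested.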

Other observations

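Tdo2, the tryptophan dioxygenase of dentate granule cells, was at 45.9 CPM in APP JQ1 replicate 3 and at 31.1 CPM in the library labelled APP JQ1 replicate 4, against 0.97 to 19.2 CPM in the other libraries. Wfs1, a marker of CA1 pyramidal cells, was at 160 CPM in WT vehicle replicate 1 and at 186 to 344 CPM in the other libraries. Their part in the differences from WT was not tested.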
